A study of Mus musculus with 30 samples.

Results

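The members are 664 m6A bins, stretches of 100 nt along mouse genes, out of 62091 distinct bins called in at least 1 of 15 peak lists. They were chosen by their calls in 4 of the 5 cell lines. Each was called in all 3 lists of the Mettl14 knockout that carries wild-type METTL14, in no list of the knockout itself, in no list of the knockout that carries the 13RK mutant, and in at least 1 list of the knockout that carries the 5RK mutant. The first 2 conditions alone define 4439 rescued bins, of which the members are 15.0%. Exchanging the mutants gave 153 rescued bins missing only in the 5RK line, or 3.45%. A further 3393 rescued bins were called in at least 1 list of each mutant, and 229 in no list of either. These calls chose the members, so they are given as a description with no test. The lists that the choice did not use are those of wild-type cells.

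All 5 lines are mouse embryonic stem cells of the C57BL/6 strain, grown on gelatin with serum and leukemia inhibitory factor. They are unmodified wild-type cells (WT), cells with Mettl14 knocked out (KO), and that knockout carrying METTL14 as the wild-type protein (KO+WT), as the 5RK mutant (KO+5RK) or as the 13RK mutant (KO+13RK). All 3 rescue lines therefore lack the endogenous gene, and WT is the one line that has it. How the rescue proteins were introduced, and whether a line is 1 clone, the labels do not say. Each line had 3 libraries immunoprecipitated with an m6A antibody and 3 input libraries, and only the 15 peak lists were analysed here. Nothing says that the replicates came from separate cultures, so the spread between lists may be technical.

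N6-methyladenosine (m6A) is a methyl mark on adenosines inside messenger RNA, common near stop codons and in long internal exons. METTL3 carries the catalytic activity of the enzyme that writes it, and METTL14 is its partner, which holds the RNA. The C-terminal tail of METTL14 is rich in arginines that protein arginine methyltransferases can modify, and arginine methylation of that tail is the subject named in the series title. In embryonic stem cells m6A is known for marking transcripts of pluripotency and developmental regulators for decay.

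The sequence of a whole bin was not read here. Of the 664 members, 2 shared a stretch with a RefSeq promoter window (build GRCm38.p6) that holds the DRACH motif in which m6A is usually made: A, G or T, then A or G, then AC, then A, C or T. They are shown to place the motif within a member, on the strand of the bin, 5′ to 3′, with the motif in capitals.
Psmc6, chr14:45329843-45329867, plus strand: tcatcatggcGGACCctagagataa
Mettl23, chr11:116853551-116853575, plus strand: ccgccgctccTGACTgaggctcgct
The Psmc6 bin, in a gene for an ATPase of the proteasome cap, was called in all 3 KO+5RK lists and all 3 WT lists, and no KO+13RK list called a bin within 500 nt of it. The Mettl23 bin is listed under a gene for an arginine methyltransferase of histones but could not be placed within that RefSeq gene. It was called in 1 KO+5RK list and 2 WT lists, and all 3 KO+13RK lists called a bin within 500 nt of it. The Psmc6 bin shared its 49 nt with the window of that gene's own start, and the Mettl23 bin shared 67 nt with the window of its neighbour Mfsd11. The motif is common: 53.5% of the 32851 promoter windows hold it in a stretch of 49 nt at the same place, and 70.5% in one of 67 nt. A match is a description and not a mapped methylated base. A further 2 members, in Scd2 and Srrm2, shared 55 nt and 7 nt with miRNA hairpins, and no match lay in those stretches.

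The lists differ in length, which bears on every count here. They held 22202 to 23143 distinct bins in WT, 14172 to 17162 in KO+WT, 11165 to 13001 in KO+5RK, 9581 to 10964 in KO+13RK and 6323 to 8585 in KO. Read depth and coverage per bin are unknown, so a bin that was not called may still carry m6A, and a call lost through lower expression cannot be told apart from lost methylation. Between 2 lists of a line, the bins in both made up 0.26 to 0.45 of the bins in either. Mettl14 itself had a called bin in only 2 of the 15 lists, both KO+5RK, so its peaks do not check the genotype. Of 4 stem cell genes, Esrrb was called in every list, Sox2 and Klf4 in all but 1 KO list, and Nanog in all but 1 KO+13RK list.

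Over all rescued bins, which neither mutant's lists chose, the KO+13RK lists called fewer than the KO+5RK lists. The KO+5RK lists called 76.3%, 72.8% and 63.6% of the 4439 bins, and the KO+13RK lists 56.4%, 53.7% and 63.0%. The groups did not overlap, though the lowest KO+5RK list and the highest KO+13RK list lay less than 1 point apart. The means were 70.9% ± 6.56 and 57.7% ± 4.77 (SD, n = 3), a difference of -13.22 points (two-sided exact permutation test over lists, p = 0.1, the smallest that 3 against 3 allows). With every list shortened to its 6323 bins of smallest p, the difference was -7.777 points and the groups overlapped. They also overlapped at a q of 0.01 (-13.0 points) and without the bins listed under Gm20388 and Gm26561 (-12.77 points), with p = 0.2 in each of these 3 exact tests.

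**Figure D1:**
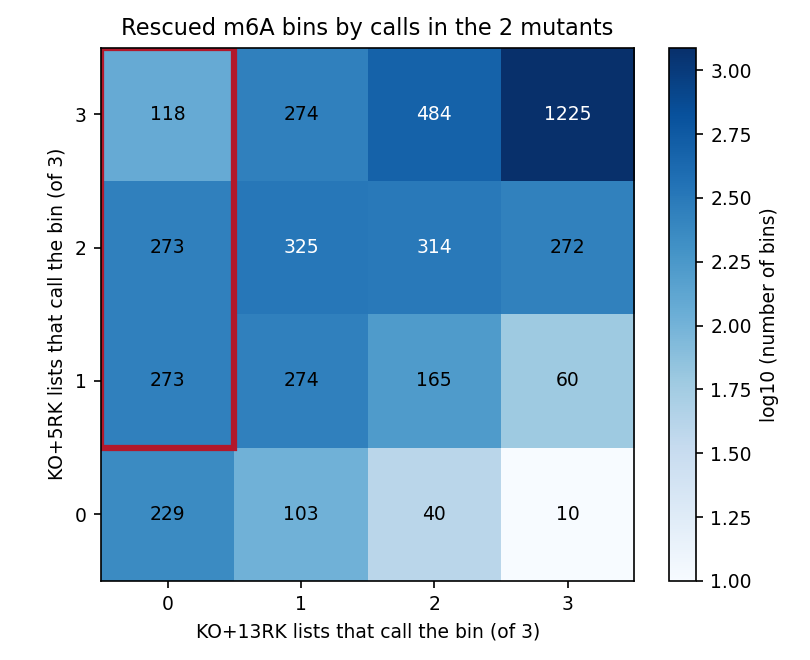
Number of rescued m6A bins (colour on a log10 scale, counts printed) by how many of the 3 KO+5RK lists (vertical axis) and of the 3 KO+13RK lists (horizontal axis) call them. The red frame holds the 664 bins missing only in KO+13RK, of which 273, 273 and 118 were called in 1, 2 and 3 KO+5RK lists.

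Most members were not called throughout the KO+5RK line either. Of the 664, 273 (41.1%) were called in 1 KO+5RK list, another 273 in 2, and 118 (17.8%) in all 3. The opposite pattern of all 3 KO+13RK lists and no KO+5RK list held 10 rescued bins. The members were also uneven over the KO+5RK lists, with 453 called in replicate 1, 425 in replicate 2 and 295 in replicate 3, the shortest of them. With lists of equal length the members numbered 175 and the bins missing only in KO+5RK 69. Over all 6211 bins called in the 3 KO+WT lists, whether or not KO called them, 16.8% were in no KO+13RK list and 7.58% in no KO+5RK list.

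The bins just outside the rule were numerous. Another 873 bins met it except for a call in 1 KO+13RK list, and 1159 except for being called in 2 KO+WT lists and not 3. A call in 1 KO list kept out 43. The 873 bins with 1 KO+13RK call were in all 3 WT lists in 81.9% of cases, and the 273 members with 1 KO+5RK call in 72.5%. The median percentile of the enrichment score within the KO+WT lists was 45.3 for the former and 40.3 for the latter. These sets are unlike, since the 873 bins had 1, 2 or 3 KO+5RK calls. The 274 of them with 1 KO+5RK call were in all 3 WT lists in 74.1% of cases, near the 72.5% of the 273 members.

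Choosing the bins without 1 of the lists, and then looking at that list, gives a share that the shortened rule did not fix. It still rests on the same calls: with a KO+13RK list left out, the bins not called in it are the 664 members. The shares are thus a description and no separate support for the members. Bins missing from the other 2 KO+13RK lists but called in KO+5RK were called in the KO+13RK list left out in 27.0%, 24.5% and 38.2% of cases, leaving out replicates 1, 2 and 3 (910, 880 and 1075 bins). Those shares lay well under the 53.7 to 63.0% of all rescued bins called in the same lists. Bins chosen the other way round, as missing from KO+5RK and called in 1 or both of the other KO+13RK lists, were called in the list left out in 32.5%, 23.1% and 39.0%. The means were 29.9% ± 7.30 and 31.5% ± 7.99 (SD, n = 3 lists), a difference smaller than the spread between lists, and the order of the 2 kinds of bin was not the same in every list.

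The KO+5RK lists gave the same picture. Bins chosen as missing only in KO+13RK without 1 KO+5RK list were called in that list in 60.7%, 58.1% and 39.7% of cases. Bins chosen as missing only in KO+5RK were called in it in 59.2%, 51.7% and 42.5%. The means were 52.8% ± 11.4 and 51.1% ± 8.36, again closer than the lists to each other. In the list left out, then, bins chosen by the other lists as missing only in KO+13RK or only in KO+5RK were called at like rates. The rates did not differ beyond the spread between lists. No p is given, since the bins chosen with different lists left out overlap.

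**Figure D2:**
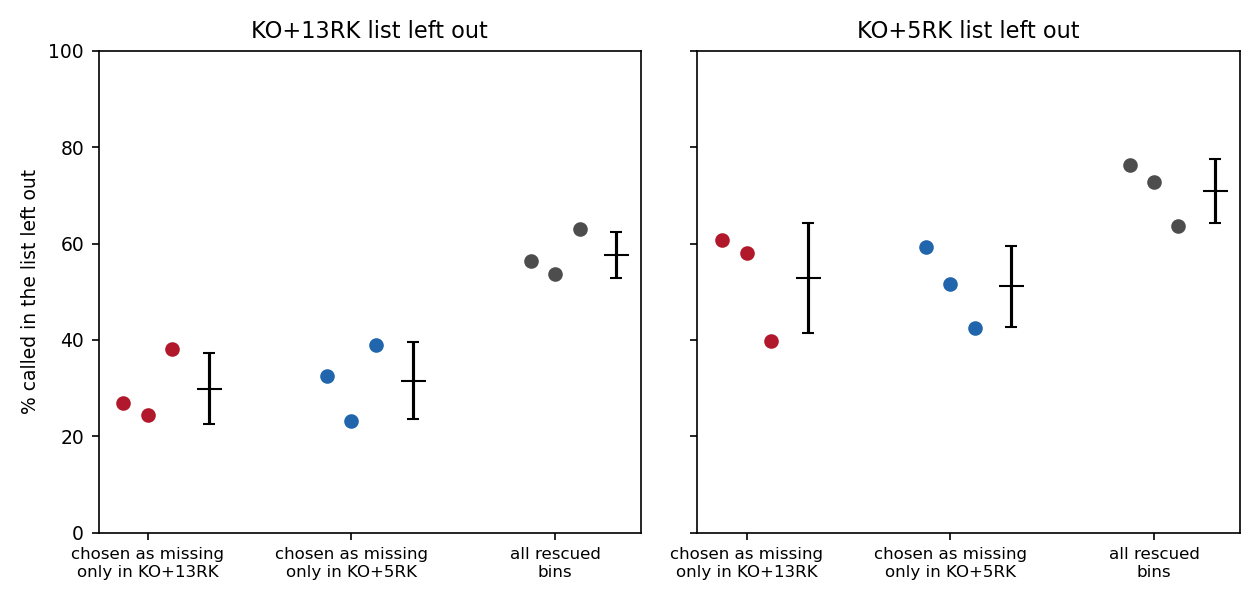
Percent of bins called in a list that was left out of the choice (points, 1 per list left out; bars, mean ± SD of 3), for a KO+13RK list (left) and a KO+5RK list (right). Bins chosen as missing only in KO+13RK (red) and only in KO+5RK (blue) lie at like heights, 29.9 and 31.5% on the left and 52.8 and 51.1% on the right, under all rescued bins (grey).

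In wild-type cells, whose lists had no part in the choice, most members were called. Of the 664, 514 (77.4%) were in all 3 WT lists, 98 in 2, 35 in 1 and 17 in none. The share in all 3 was 83.6% of the 4439 rescued bins and 81.6% of the 6211 bins called in all 3 KO+WT lists, so the members lie somewhat under both. The 3 WT lists called 88.4%, 88.9% and 89.8% of the members, and the bins called in both mutants 95.3%, 94.3% and 94.1%. The members were lower in each list, with differences of -6.88, -5.48 and -4.37 points. The bins missing only in KO+5RK were called in 78.9% ± 3.83 and those missing in both mutants in 71.6% ± 1.16 (SD, n = 3 lists), both under the members in every list.

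The gap to the bins called in both mutants moved with how often KO+5RK called a bin. Among members called in 3 KO+5RK lists, 86.4% of 118 were in all 3 WT lists, against 93.9% of the 1983 rescued bins with 3 KO+5RK calls and at least 1 KO+13RK call. With 2 KO+5RK calls the shares were 78.4% and 83.0%, and with 1 call 72.5% and 74.5%. The share thus rose with the number of KO+5RK calls in both kinds of bin, and the members were lower at each number by this measure. In single WT lists they were lower too, except at 1 KO+5RK call in WT replicate 3, which called 87.5% of the members and 86.0% of the others.

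The members' calls in the KO+WT lists ranked lower than those of bins called in both mutants. The authors' enrichment score has no stated scale, so it was turned into a percentile within each list, with 100 the highest. The members' median percentile was 39.1 ± 1.53 over the 3 KO+WT lists (SD), and 49.5 ± 0.703 for bins called in both mutants. It was 50.9 ± 1.20 for bins missing only in KO+5RK, higher than for the members, and 37.5 ± 2.13 for bins missing in both. By the deposited p the order of the 2 one-sided kinds turned, with medians of 57.9 ± 2.78 for the members and 52.7 ± 6.89 for bins missing only in KO+5RK, against 77.6 ± 1.68 for bins called in both mutants. The first 2 overlapped between lists. In the WT lists the members that were called had a median score percentile of 47.7 ± 0.312, against 58.0 ± 0.341. Bins with lower ranks by p lie nearer the authors' limit on q, which the rank by score need not follow. Whether such nearness had a part in the missing KO+13RK calls was not tested.

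**Figure D3:**
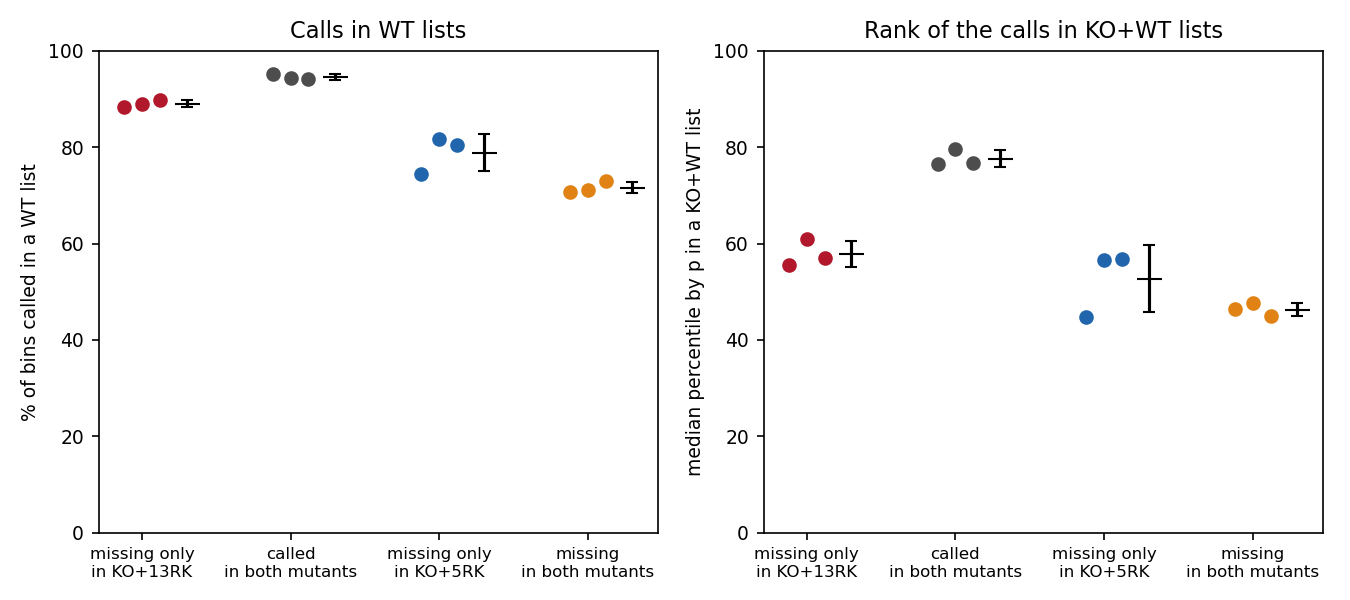
Left, percent of each kind of rescued bin called in each of the 3 WT lists. Right, median percentile of the deposited p (100 for the smallest p) within each of the 3 KO+WT lists. Points are lists and bars are mean ± SD; the members (red) lie under the bins called in both mutants (grey) in every list, at 89.0 against 94.6% and at 57.9 against 77.6.

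Many members sat beside a bin that KO+13RK did call. A bin touching or overlapping the member was called in at least 1 KO+13RK list for 294 of 664 members (44.3%) and in all 3 for 81 (12.2%). Here and below, the touching bin need not be the same one in each list. For 17 members (2.56%) a bin called in KO+13RK overlapped the member itself, in all 3 lists for 9. Within 500 nt, 432 (65.1%) had a bin called in KO+13RK and 232 (34.9%) had none. Apart from this, 6 members overlapped another member. Of the bins missing only in KO+5RK, 61.4% touched a bin called in KO+5RK and 82.4% had one within 500 nt. Of the bins missing in both mutants, 56.3% had a bin called in KO+13RK within 500 nt. The neighbouring bin of the same tiling was called in at least 1 KO+13RK list for 43.2% of the members and for 72.4% of the bins called in both mutants. For 69 members a neighbour was itself a member, so its calls were fixed by the choice. Among the other 595, a neighbour was called for 67.2% ± 1.27 per WT list, 49.4% ± 3.24 per KO+WT list, 38.2% ± 5.46 per KO+5RK list, 27.5% ± 2.37 per KO+13RK list and 3.03% ± 0.845 per KO list (SD, n = 3). These shares followed the order of list length, and no line overlapped the next. Leaving out the 69 also leaves out neighbours that by choice KO+WT called and KO+13RK did not.

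By gene, absence from the KO+13RK lists was less complete than by bin, where the choice fixed it. The members lay in 559 genes, 22.0% of the 2542 genes with a rescued bin, and 493 of these genes held a single member. Genes with a bin missing only in KO+5RK were 5.78%. Of the 559 genes, 216 (38.6%) had a bin in each of the 3 KO+13RK lists, and 116 (20.8%) had none in any. The bin need not be the same one in each list. The 116 are the genes for which the KO+13RK lists show no m6A bin at all. Among all genes with a rescued bin 59.5% had a bin in each KO+13RK list and 5.98% had none in any. Among the 147 genes with a bin missing only in KO+5RK, 10.2% had none in KO+5RK. The 559 genes were chosen for a bin that no KO+13RK list called, so a raised share without KO+13RK calls is built in. They are also part of all genes with a rescued bin, so these shares are a description only. In KO, whose lists share no rescued bin by choice, 150 of the 559 genes (26.8%) still had a bin in each list. No KO list called a bin for 171 (30.6%). Among all genes with a rescued bin the shares were near these, at 24.2% and 32.1%.

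Position along the gene did not set the members apart from bins called in both mutants. The 602 members that could be placed in a RefSeq gene lay a median of 2954 nt from the gene end, and 38.2% lay within 2000 nt of it. The values for the bins called in both mutants were 2850 nt and 37.4%. For bins missing only in KO+5RK they were 4950 nt and 27.6% of 145 placed bins. Distances run along the genome, introns included. Of the placed members, 98.5% were in protein-coding genes, against 98.0% of the placed bins called in both mutants. By chromosome, the members' share of the rescued bins ran from 9.92% on chromosome 18 to 19.6% on chromosome 1.

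The 12 members with the highest score ranks among those called in every KO+5RK and WT list lay in Dclre1c, Otud4, Pacs2, Slc39a10, Orc3, Gm20388, Thada, Lgalsl, Glb1, Ssbp3, Fastkd2 and Col5a1. The Dclre1c bin, in the gene for the Artemis nuclease that opens hairpins in DNA end joining, lay at chr2:3458432-3458531 on the plus strand. Its enrichment score was 2.17, 2.80 and 2.84 in the KO+WT lists, 2.17, 2.47 and 3.04 in KO+5RK and 2.98, 2.01 and 3.49 in WT. It ranked at the 93.9th percentile of the KO+WT lists on average by score but at 45.6 by p. No KO+13RK list called a bin within 500 nt of it, although 2 called another Dclre1c bin, and no KO list called the gene.

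Slc39a10 and Ssbp3 showed the same local absence. The Slc39a10 bin, in a gene for a zinc importer, lay at chr1:46835845-46835944 on the minus strand and scored 1.86, 2.10 and 2.63 in KO+WT, 1.76, 1.37 and 2.17 in KO+5RK and 1.59, 2.28 and 1.64 in WT. The Ssbp3 bin, in a gene for a cofactor of LIM-domain transcription complexes, lay 943 nt before the gene end, at chr4:107048702-107048801 on the plus strand. Its scores were 2.02, 1.96 and 1.46 in KO+WT, 1.36, 1.58 and 1.34 in KO+5RK and 1.92, 2.08 and 2.08 in WT. Neither had a KO+13RK call within 500 nt, and each gene was called elsewhere in 1 KO+13RK list and in all 3 KO lists. A bin touching the Slc39a10 bin is itself a member, so its absence from KO+13RK is fixed by the choice. For that neighbour, 1 KO+13RK list called a bin within 500 nt.

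Other leading members lay beside KO+13RK calls. The bins in Pacs2, a gene for a sorting protein of the endoplasmic reticulum, and in Thada touched a bin called in all 3 KO+13RK lists. The Otud4 bin, in a gene for a deubiquitinase, the Glb1 bin, in the gene for lysosomal beta-galactosidase, and the bin listed under Gm20388 touched a bin called in 2. The bins in Orc3, a gene for a subunit of the origin recognition complex, in Fastkd2, which acts on mitochondrial RNA, and in Col5a1, a fibrillar collagen, touched a bin called in 1. The Lgalsl bin touched none, and 2 KO+13RK lists called a bin within 500 nt of it. Of the 12, 3 had no KO+13RK call within 500 nt.

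Msh6, a DNA mismatch repair gene, held 6 members, the most of any gene with an unambiguous span. Its called bins numbered 21, 20 and 22 in the WT lists, 16, 19 and 15 in KO+WT, 15, 16 and 6 in KO+5RK, 4, 8 and 5 in KO+13RK and 0, 2 and 3 in KO. The KO+13RK lists lay above KO and below KO+WT without overlap, and the lowest KO+5RK list lay within the KO+13RK range. By choice the 6 members are in each KO+WT count and in no KO+13RK or KO count. The gap between KO+WT and KO+13RK is thus partly fixed by the choice, and counts without the members were not made. The same holds for the counts of Huwe1 and Etl4 below. Of 13 rescued Msh6 bins, 6 were members, and they lay among bins that KO+13RK also called. At 9750 nt from the gene start a bin was called in 3 lists of WT, KO+WT, KO+5RK and KO+13RK alike, while the member at 10750 nt was called in 3, 3, 3 and 0. That member, chr17:87985751-87985850 on the plus strand, scored 0.63, 1.34 and 0.98 in KO+WT and 0.80, 0.94 and 0.68 in KO+5RK, at the 22.2th percentile of the KO+WT lists on average.

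Huwe1, a HECT-type ubiquitin ligase gene on the X chromosome, held 5 members. The KO+WT lists called 30, 26 and 24 Huwe1 bins, the KO+5RK lists 21, 13 and 2, the KO+13RK lists 4, 5 and 4, and the KO lists 6, 6 and 14. KO+5RK replicate 3 lay below every KO+13RK list, and every KO list lay above every KO+13RK list. The WT lists called 12, 16 and 17, fewer than KO+WT. Of the 5 members 4 were called in all 3 WT lists, and none was called in KO+5RK replicate 3.

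**Figure D4:**
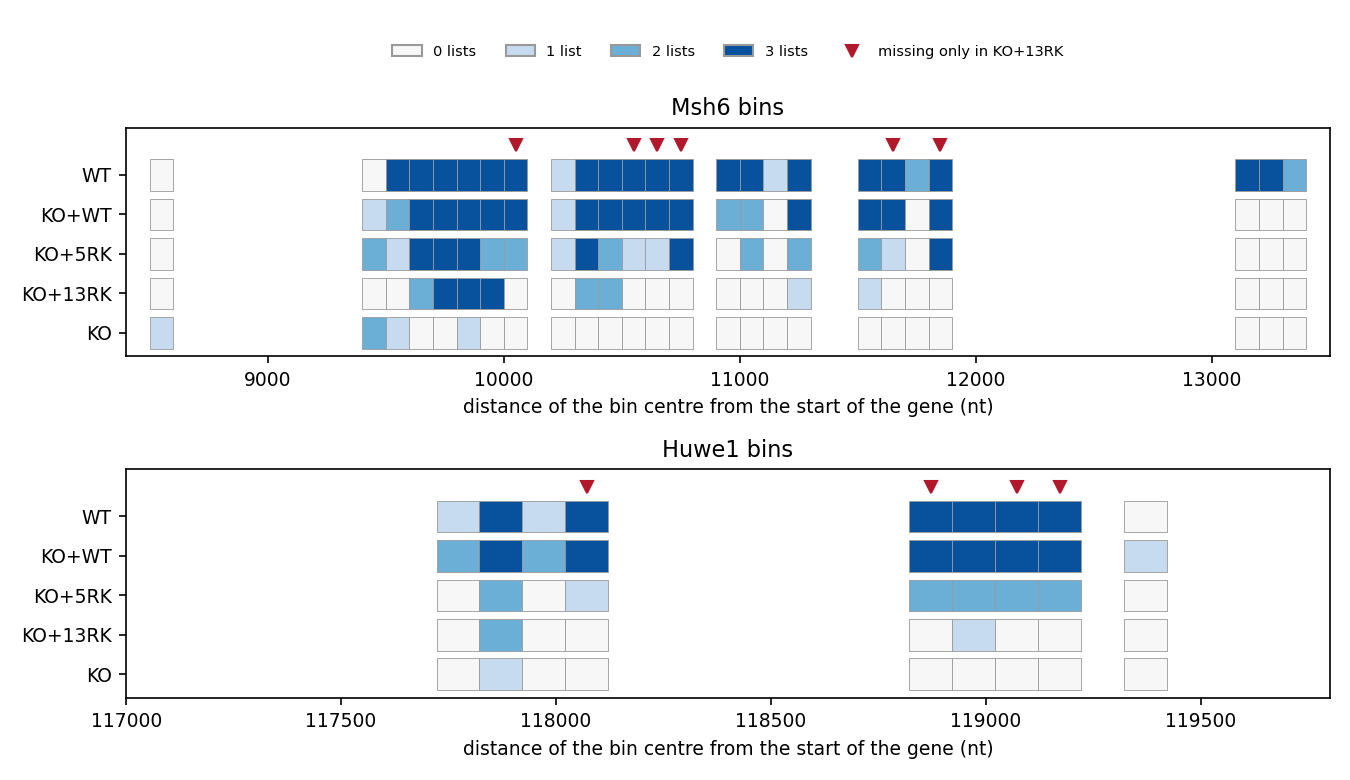
Called bins of Msh6 (whole called stretch) and Huwe1 (the stretch with 4 of its 5 members) by distance of the bin centre from the gene start in nt. Each box is a bin and its shade the number of lists of the line, of 3, that call it; triangles mark the bins missing only in KO+13RK. In the Msh6 map 1 of the 6 touches a bin called in all 3 KO+13RK lists and 3 touch none called in KO+13RK.

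Etl4 differed from both in having no bin in any KO+13RK list. The WT lists called 12, 11 and 11 Etl4 bins, the KO+WT lists 9, 7 and 4, and the KO+5RK lists 3, 2 and 2, while 1 KO list called 1. Its 3 members were each called in all 3 WT lists and in 2, 1 and 2 KO+5RK lists. Lrrc8d, a gene for a subunit of volume-regulated anion channels, held 3 members within 500 nt, and a bin within 500 nt of each was called in 2 KO+13RK lists.

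The gene with most members, Gm20388, is uncertain as a gene. Its 1492 called bins spread over 4434300 nt of chromosome 8, and 18 of its 23 members fell into the spans of other genes. There were 11 in one of 8 RefSeq genes on the same strand, 4 of them in Urb2 and others in Map1lc3b, Tcf25, Tubb3, Gas8 and Cdt1. Another 7 lay only in a gene of the opposite strand, 4 of them in Zcchc14, and 5 lay in no other RefSeq gene. The 4 members listed under Gm26561 were alike, with 2 in Lpin2. Gene names of these bins cannot be settled from the lists. In all, 37 of the 664 members overlapped a bin called on the opposite strand in all 3 KO+WT lists. The same count was not made for other rescued bins, so it does not set the members apart. Without Gm20388 and Gm26561 the members numbered 637.

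By gene list, the share of genes with a member lay on either side of the 22.0% of all genes with a rescued bin. Chromatin modifiers had a member in 10 of 46 genes with a rescued bin (21.7%), RNA helicases and splicing factors in 10 of 45 (22.2%), and ubiquitin ligases and deubiquitinases in 21 of 90 (23.3%). Zinc finger proteins had 15 of 52 (28.8%), solute carriers 7 of 43 (16.3%), cell cycle and p53 genes 6 of 21 (28.6%), and kinesins, dyneins and centrosome genes 4 of 23 (17.4%). Translation factors had 4 of 13 and cytosolic ribosomal proteins 1 of 4. Autosomal long noncoding RNAs and the listed protein arginine methyltransferases had none, of 7 and 6 genes. The latter list did not hold Mettl23, the arginine methyltransferase gene under which a member shown above is listed. None of the 8 called markers of primed pluripotency had a rescued bin, and of the fibroblast markers 1 had, Col5a1, which is a member.

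The pathway genes of TGF-beta, FGF and Wnt signalling had a member in 12 of 23 genes (52.2%). They also held many rescued bins, 87 in all, and 14 of these were members (16.1%), near the 15.0% of all rescued bins. Smurf2, a ubiquitin ligase for the TGF-beta receptor and SMADs, had a member called in 3 KO+5RK and 3 WT lists, with scores of 1.07, 1.27 and 1.21 in KO+WT and no KO+13RK call within 500 nt. Grb2, an adaptor between FGF receptors and RAS, had a member called in 2 KO+5RK and 3 WT lists, and no KO+13RK list called any Grb2 bin, whereas all 3 KO lists called one. Gli2, a Hedgehog transcription factor, held 2 members, called in 2 and 1 KO+5RK lists. The member in Fgfr1, an FGF receptor, was called in 2 KO+5RK lists and touched a bin called in 2 KO+13RK lists.

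Among DNA repair genes, excision and mismatch repair had 4 of 10 genes and 9 of 27 rescued bins (33.3%). Without Msh6, 3 of 14 bins were members (21.4%). The others were Ung, a uracil glycosylase, Pole, the catalytic subunit of DNA polymerase epsilon, and Gtf2h1, a TFIIH subunit for which no KO+13RK list called any bin. Double-strand break repair had 3 of 17 genes, Dclre1c, the helicase gene Blm and the checkpoint kinase gene Atr. Crosslink repair had 1 of 12, Brca2, whose member was called in 3 KO+5RK and 3 WT lists with scores of 1.25, 1.93 and 2.06 in KO+WT. No KO+13RK list called a bin within 500 nt of the Brca2 member, and all 3 called Brca2 elsewhere.

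Pluripotency genes had a member in 6 of 20 genes and 8 of 48 rescued bins (16.7%). Esrrb, a nuclear receptor of the naive state, held 3. The Esrrb member at chr12:86519118-86519217 on the plus strand, 2461 nt before the gene end, was called in every list of WT, KO+WT and KO+5RK. The bin that touches it upstream was called in every list of these lines and in all 3 KO+13RK lists as well. The member at 51161 nt before the gene end likewise touched a bin called in every list of these 4 lines. The third, 361 nt before the gene end, had no KO+13RK call within 500 nt and was called in 1 KO+5RK list. Tfcp2l1, Nr5a2 and Tet1 held 1 member each, with 2, 1 and 1 KO+5RK calls and 3 WT calls. Each KO+13RK list called some other bin of each gene.

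Genes of the m6A machinery had members in 3 of 7 genes and 4 of 12 rescued bins. Wtap, the scaffold subunit of the writer complex, held 2, of which the stronger scored 2.44, 1.24 and 1.28 in KO+WT and had no KO+13RK call within 500 nt. Mettl16, the methyltransferase that marks U6 RNA and Mat2a, held 1, with scores of 0.96, 0.96 and 0.87, and no KO+13RK list called any Mettl16 bin. Prrc2a held 1, at the 1.75th percentile of the KO+WT lists on average, beside a bin called in all 3 KO+13RK lists. With so few genes these counts differ from the background by 1 or 2 genes.

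The other m6A bins of the same genes offer a comparison that the rule did not fix bin by bin. Bins found in every WT list, absent from KO and short of all 3 KO+WT lists numbered 883 in genes with a member and 1649 in other genes with a rescued bin. In the member genes the KO+13RK lists called 15.3%, 15.6% and 15.9% of them, and in the other genes 23.2%, 20.0% and 28.8%. The groups of values did not overlap, with means of 15.6% ± 0.287 and 24.02% ± 4.45 (SD, n = 3 lists). In the KO+5RK lists the shares were 42.1%, 29.4% and 22.9% in the member genes and 37.7%, 35.9% and 27.2% in the other genes, which overlapped. In KO+WT they were 36.1% ± 7.31 and 40.9% ± 4.60, which overlapped too. Genes were chosen with the same KO+13RK libraries, and bins of a gene share its expression, so no p is given and the part of expression was not tested. Without Gm20388 and Gm26561 the member genes' mean in KO+13RK was 15.4% ± 2.32.

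**Figure D5:**
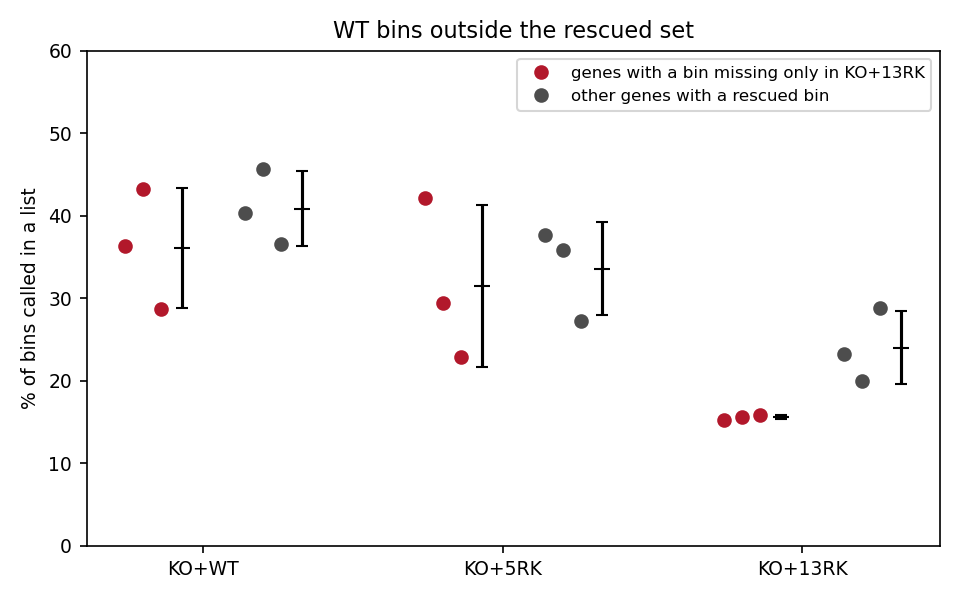
Percent of WT bins outside the rescued set that each KO+WT, KO+5RK or KO+13RK list calls (points; bars, mean ± SD of 3), for 883 bins in genes with a bin missing only in KO+13RK (red) and 1649 bins in other genes with a rescued bin (grey). The 2 kinds of gene separate in KO+13RK, at 15.6 and 24.02%, and overlap in KO+WT and in KO+5RK.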

How the data were processed

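Per the labels' protocols, fragmented poly(A) RNA was pulled down with an m6A antibody and sequenced as stranded libraries. STAR 2.5.3a, kallisto 0.43.0 and the build GRCm38 appear in the submitters' processing notes, without roles. The deposited lists carry the term clam_peak in their names, and no source used here describes the peak caller further. The deposited lists, 1 per immunoprecipitated library, give bins of 100 nt per gene with the authors' enrichment score (0.31 to 5.82), compared only within a list. Each bin's p-value and q-value are likewise those the authors deposited, with q under 0.05 throughout. Read depth is unknown.

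A bin was the same in 2 lists when chromosome, start, end and strand were identical. Counts, percentiles and exact tests were computed in Python 3.11.15 with pandas 2.3.3 and numpy 2.4.6, and tested on simulated data. Symbols and gene spans came from RefSeq tables of GRCm38.p6; the motif was searched on the strand of the bin. The members, the gene lists and the comparisons were chosen with earlier results of these data known. Genes were named by rule: 12 members by calls and score rank, the 6 genes with most members, up to 4 per gene list (19 lists), and Mettl14. Psmc6, Mettl23, Scd2, Srrm2, the spans under Gm20388 and Gm26561, and the 2 further Esrrb members were chosen after their values were seen, as was the comparison of other bins of the same genes. Alternatives were a q of 0.01, overlap or 100 nt in place of identity, lists of equal length, more KO+5RK lists, each list left out, the replicate block and the percentile of p.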

Additional observations from a re-analysis of the deposited data

How the results depend on the processing

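The number of bins missing only in KO+13RK was 422 at a q of 0.01, 339 when any bin within 100 nt counted as a call, 175 with lists of equal length, 391 when at least 2 KO+5RK lists had to call the bin and 118 when all 3 had to. Leaving out 1 list gave 537 to 1119. The count passed 1.5 times the reported one without KO+WT replicate 1 (1058), KO+WT replicate 3 (1119) or KO+13RK replicate 3 (1075). The bins missing only in KO+5RK numbered 54 within 100 nt, 69 at equal length, 50 with at least 2 KO+13RK lists and 10 with all 3, and 105 to 375 with 1 list left out. They passed 1.5 times the reported count without any 1 of the KO+WT lists (311, 289 and 331) or of the KO+5RK lists (375, 317 and 266). Bins missing only in KO+13RK were the more numerous under each of these settings.

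The mean percent of members called per WT list was 91.15 at a q of 0.01, 90.86 within 100 nt, 81.71 at equal length and 93.79 for members in all 3 KO+5RK lists, and 81.35 to 90.23 with 1 list left out. The median over members of the mean score percentile in KO+WT, 39.9, was 44.16, 42.04 and 49.09 under the first 3 of these, 55.85 by p, and 39.4 to 43.69 with 1 list left out. The difference between the mutants over all rescued bins kept its direction throughout, from -16.86 to -7.777 points. Same-numbered KO+5RK and KO+13RK lists did not deviate together (correlations -0.0307, -0.0298 and -0.0135), so the numbers do not pair them; with the replicate block the difference was -13.22 points (exact sign-flip test, p = 0.25, the smallest possible). The difference for other bins of the same genes ran from -11.68 to -5.007 points, and the 2 overlap settings gave no value for it. The cause of these moves was not tested. Unknown depth limits every absent call.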
